A study of Drosophila melanogaster with 36 samples.

Results

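The 9 genes described here form the core of programmed cell death in Drosophila: the inducers rpr, hid, grim and skl, the inhibitor Diap1, the initiator caspase Dronc with its adaptor Dark, and the effector caspases Drice and Dcp-1. They were taken by symbol from the deposited gene counts, and all 9 were among the 17137 symbols listed. Counts came from 36 RNA-seq libraries of S2R+ cells, an established embryonic Drosophila line with features of phagocytic blood cells. There were 12 groups of 3 libraries. Control cells were untreated. Stressed cells had 3 h in 0.5 mM sodium arsenite, which causes oxidative stress and binds protein thiols. Recovering cells had the same 3 h followed by 3 h in fresh medium. These 3 treatments were applied to unmodified cells (labelled WT), to cells given a Mock RNAi, to cells given RNAi against rasputin (Rin RNAi), and to cells whose RNA is labelled Click-iT. The labels name no allele or transgene in any group and do not say what the Mock RNAi targets, and RNAi lowers a transcript without removing its gene. Rasputin (rin) is the Drosophila G3BP protein, which nucleates stress granules, and the series is about whether the response of transcription to oxidative stress depends on such granules. Click-iT is the name of a click-chemistry labelling system used to capture newly made RNA, and the labels give that name and the word bead in the titles, with no more on the capture.

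In flies the decision to die is made largely at one step. The products of rpr, hid, grim and skl carry a short amino-terminal motif that binds the BIR domains of Diap1, an E3 ubiquitin ligase that otherwise holds caspases in check. Once Diap1 is displaced or degraded, Dronc assembles with Dark into the apoptosome and cleaves Drice and Dcp-1, which cut cellular proteins. The inducers are controlled mainly through transcription, downstream of signals such as p53, JNK and ecdysone, whereas the caspases are made as inactive precursors. Transcript levels therefore describe the supply of each part and not caspase activity, which was not measured.

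The 27 poly(A) libraries held 6121664 to 11211712 counts in genes and the 9 Click-iT libraries 169760 to 2746277. Between 70.2% and 94.2% of the Click-iT alignments were not unique, against 3.88% to 7.51% in poly(A) libraries. The targeted gene was lower where the labels say so: rin stood at 891 to 910 CPM (gene counts scaled to a common library size) in Mock control and at 204 to 390 CPM in Rin control. Of 9 markers of S2 cells or plasmatocytes, 7 averaged at least 1 CPM over the poly(A) libraries, and NimC1 and He, with means of 0.0804 and 0.386 CPM, were close to 0. Summed over the 9 markers, WT libraries held 3760 to 5150 CPM, Mock libraries 755 to 1340 CPM and Rin libraries 669 to 1370 CPM, and within each of these sets the control libraries were the highest. Of 3 germ cell markers, bam averaged 139 CPM over the poly(A) libraries, while vas and nos averaged 0.371 and 1.3 CPM. The library labelled Click-iT stress replicate 2 stood apart from the other Click-iT stress libraries for several of the 9 genes, as given below. The labels do not say whether replicates were separate cultures, so the p-values measure the spread between these libraries.

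Levels are given as CPM after TMM scaling over all 27 poly(A) libraries, and for Click-iT over its 9 libraries. Fold changes come from edgeR's quasi-likelihood test, fitted on all genes that passed a filter on low counts, with Benjamini-Hochberg adjustment over those genes and a threshold of 0.05. WT libraries were fitted as 1 set, Mock and Rin libraries together, and a gene is called only if it passed that threshold. Stress and recovery of a set share its control libraries, so their values are given side by side and are not independent. Of the 9 genes, 7 passed the filter in each poly(A) fit, and grim and skl did not.

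In WT cells arsenite was followed by more rpr, hid and Drice transcript and by smaller called rises of Dronc and Dark. The Dronc call in recovery and both Dark calls depended on the processing or on single libraries. There was no called change of Diap1 or Dcp-1. Of the 7 genes tested, 5 were called higher and 0 lower in stress, where 60.3% of all genes tested were called, 30.3% higher and 30.0% lower. In recovery 5 were higher and 0 lower, where 68.7% of all genes were called, 35.2% higher and 33.5% lower. The median log2 fold change of the 7 was 0.25 in stress and 0.21 in recovery, beside 0.01 and 0.00 over all genes tested. With counts scaled to the library total alone, the calls were 4 higher and 0 lower in stress and 3 higher and 2 lower in recovery, the 2 being Diap1 and Dcp-1. That scaling moved all genes down in recovery, as given in the last section, so this split is not read as particular to the 7 genes.

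**Figure D1:**
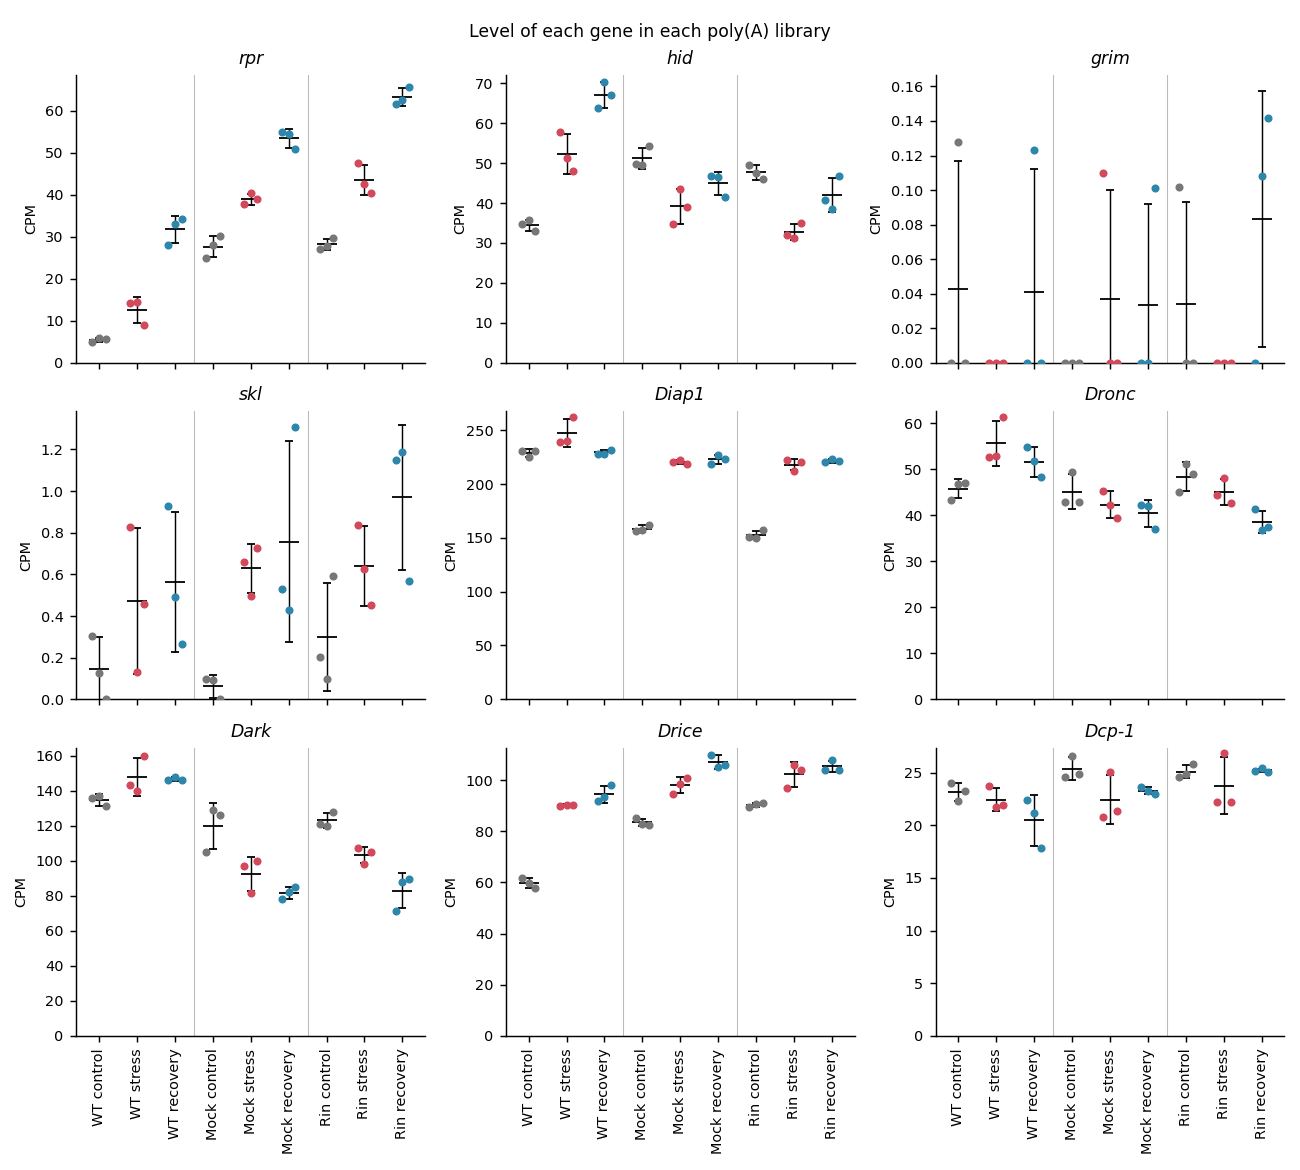
Level of each of the 9 genes in the 27 poly(A) libraries. Points are libraries (vertical axis, CPM, linear from 0), coloured grey for control, red for stress and blue for recovery, with a bar at the mean and whiskers of 1 SD over 3 libraries. In WT cells rpr goes from 4.89 to 5.87 CPM in control libraries to 28.1 to 34.2 CPM in recovery, while Mock and Rin control libraries start at 24.9 to 30.1 CPM.

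Among the inducers, rpr, a gene of 1 short transcript whose product binds Diap1, moved the most. The WT control libraries held 4.89, 5.87 and 5.58 CPM of it, from 32 to 46 counts each. The stress libraries held 14.1, 14.4 and 9.03 CPM, and the recovery libraries 28.1, 33.1 and 34.2 CPM. The 3 groups did not overlap, and stress replicate 3 was the lowest of its group. By edgeR rpr rose 2.28-fold with stress, a log2 fold change of 1.19 (SE 0.17) with adjusted p = 1.33e-07, and 5.93-fold by recovery, a log2 fold change of 2.57 (SE 0.14) with adjusted p = 9.25e-20. Most of the rise came after arsenite was removed: recovery exceeded stress by 1.38 (SE 0.11, adjusted p = 2.28e-13), and 26.5% of all genes were called in that comparison. Leaving out each library in turn gave 1.07 to 1.35 for stress and 2.5 to 2.65 for recovery.

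The second expressed inducer, hid, encodes a larger protein that binds Diap1 and is inhibited by MAPK phosphorylation. Its WT control libraries held 34.7, 35.7 and 33.0 CPM, the stress libraries 57.7, 51.4 and 47.9 CPM and the recovery libraries 63.7, 70.2 and 67.0 CPM. As for rpr, the groups did not overlap. hid rose 1.5-fold with stress (log2 0.59, SE 0.07, adjusted p = 6.24e-09) and 2.0-fold by recovery (log2 1.00, SE 0.07, adjusted p = 3.94e-16). Recovery exceeded stress by 0.41 (SE 0.06, adjusted p = 1.62e-06), and rpr and hid were the 2 members called in that comparison.

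The other inducers were near the limit of detection. For grim, which binds Diap1 as rpr does, 7 counts were found in all 27 poly(A) libraries together, with at most 1 in a library. A library with no count allows up to 3 counts, or 0.273 to 0.459 CPM in these libraries, for counting error only. Only 409 of the 1699 exonic bases of grim are not shared with the annotated lncRNA:CR45975 and asRNA:CR45974, both at 0 counts in every library, and how reads in shared bases were counted is not given in the sources used here. For skl (sickle), a relative of rpr, the poly(A) libraries held 120 counts in all. Its WT groups summed to 3 counts in control, 10 in stress and 14 in recovery, and the per-library levels ran from 0.00 to 0.305, 0.129 to 0.828 and 0.267 to 0.928 CPM, so control overlapped both. Corrected for depth, the ratio to control was 3.44 in stress (exact 95% interval 0.886 to 19.5) and 4.29 in recovery (1.20 to 23.3), intervals that cover counting error only.

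Diap1, the inhibitor, was not called in WT cells. The control libraries held 231, 225 and 231 CPM, the stress libraries 239, 240 and 262 CPM and the recovery libraries 228, 228 and 232 CPM. Control and recovery overlapped, and stress lay just above control. The log2 fold change was 0.09 in stress (95% interval 0.01 to 0.17, adjusted p = 0.0574 by edgeR) and 0.04 in recovery (−0.04 to 0.12, adjusted p = 0.371). Both rest on the scaling, and the stress value on single libraries too. It passed at 0.10 (adjusted p = 0.0415) with RLE size factors, at 0.11 without stress replicate 1 (0.0270) or replicate 2 (0.0347), and was −0.01 (adjusted p = 0.843) with total library size, under which the recovery value was −0.14 (adjusted p = 0.00327).

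Of the initiator and its adaptor, Dronc, a CARD-containing caspase, rose from 43.4, 46.9 and 47.1 CPM in WT control to 52.6, 53 and 61.4 CPM in stress, and stood at 54.9, 51.8 and 48.3 CPM in recovery. These rises were of 0.25 on the log2 scale for stress (SE 0.07, adjusted p = 0.00156) and 0.21 for recovery (SE 0.07, adjusted p = 0.00585), by edgeR. The recovery call was lost without recovery replicate 1 (0.16, adjusted p = 0.0614), with DESeq2 (adjusted p = 0.0526) and with total library size. Dark, the fly relative of Apaf-1 that builds the apoptosome, had 136, 137 and 131 CPM in control, 143, 140 and 160 CPM in stress and 146, 148 and 146 CPM in recovery. Its log2 fold change of 0.12 in stress (adjusted p = 0.0325) was lost without stress replicate 3 (0.05, adjusted p = 0.383) or control replicate 3 (0.09, adjusted p = 0.153), with total library size (0.02, 0.787), without the filter (0.11, 0.0508) and with DESeq2 (0.12, 0.102). That of 0.17 in recovery (SE 0.05, adjusted p = 0.00183) was −0.01 under total library size. Only 2104 of the 4883 exonic bases of Dark are free of the antisense gene asRNA:CR44390, which fell by 0.84 on the log2 scale in WT recovery (adjusted p = 0.000296), and the library kit does not mark strand, so reads of the pair cannot be told apart.

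The effector caspases differed from each other. Drice, the main effector caspase of the fly, rose from 61.9, 59.8 and 58.0 CPM in WT control to 89.8, 90.3 and 90.4 CPM in stress and 91.9, 93.3 and 98.2 CPM in recovery. No library of a treated group reached down to control. By edgeR this was a rise of 0.57 on the log2 scale with stress (SE 0.05, adjusted p = 5.07e-12) and of 0.70 by recovery (SE 0.05, adjusted p = 6.18e-15). Dcp-1, a close relative with overlapping substrates, held 24.0, 22.3 and 23.3 CPM in control, 23.7, 21.7 and 21.9 CPM in stress and 22.4, 21.2 and 17.8 CPM in recovery. Its log2 differences were −0.06 (95% interval −0.25 to 0.13) and −0.13 (−0.32 to 0.05), and neither was called. Of the 1749 exonic bases of Dcp-1, 1510 are free of pita, a gene on the other strand. In WT control, stress and recovery pita averaged 88.1, 94.1 and 92.4 CPM. Reads in the bases that Dcp-1 and pita share cannot be told apart, as for Dark. Within a library, Drice over Dcp-1 (counts per kb of exonic bases that no other gene shares) was 1.95 to 2.10 in control libraries, 2.97 to 3.25 under stress and 3.22 to 4.33 after recovery, with no overlap between control and either treatment.

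The order of levels in WT cells, on the CPM per kb scale, changed mainly through rpr. That scale divides by exonic bases that no other gene shares, which assumes that reads in shared bases were not counted. The place of Dark in the order depends on this, as only 2104 of its 4883 exonic bases are unshared. In WT control Diap1 was highest at a mean of 81.9, followed by Dark at 64.0, Drice at 31.1, Dronc at 22.7, Dcp-1 at 15.4, hid at 8.58 and rpr at 6.04, and no neighbours in that order overlapped between libraries. In WT recovery rpr had passed Dcp-1, hid and Dronc to stand next below Drice at 35.3 CPM per kb. There Dronc, at 23.9 to 27.2, lay below rpr, at 31.2 to 38.0, and hid, at 15.9 to 17.5, lay above Dcp-1, at 11.8 to 14.8. In both groups skl and grim were lowest, at means of 0.407 CPM per kb or less.

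In Mock and Rin cells the same treatments were followed by another pattern: rpr, Diap1 and Drice were called higher, while hid and Dark were called lower. In Mock stress 3 of the 7 genes were higher and 2 lower, where 58.8% of all genes tested were called (29.0% higher, 29.8% lower), and in Mock recovery again 3 and 2, where 65.8% were called (33.1% higher, 32.8% lower). In Rin stress 3 were higher and 2 lower (61.2% of all genes called, 30.4% higher and 30.8% lower), and in Rin recovery 3 were higher and 3 lower (69.5% of all genes called, 35.2% higher and 34.3% lower). With scaling to the library total alone the split became 2 higher and 4 lower in each of these comparisons, the 4 being hid, Dark, Dronc and Dcp-1. Here too that scaling moved all genes down in recovery, and the shares of all genes called under it are not given. The split is therefore not read as particular to the 7 genes.

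**Figure D2:**
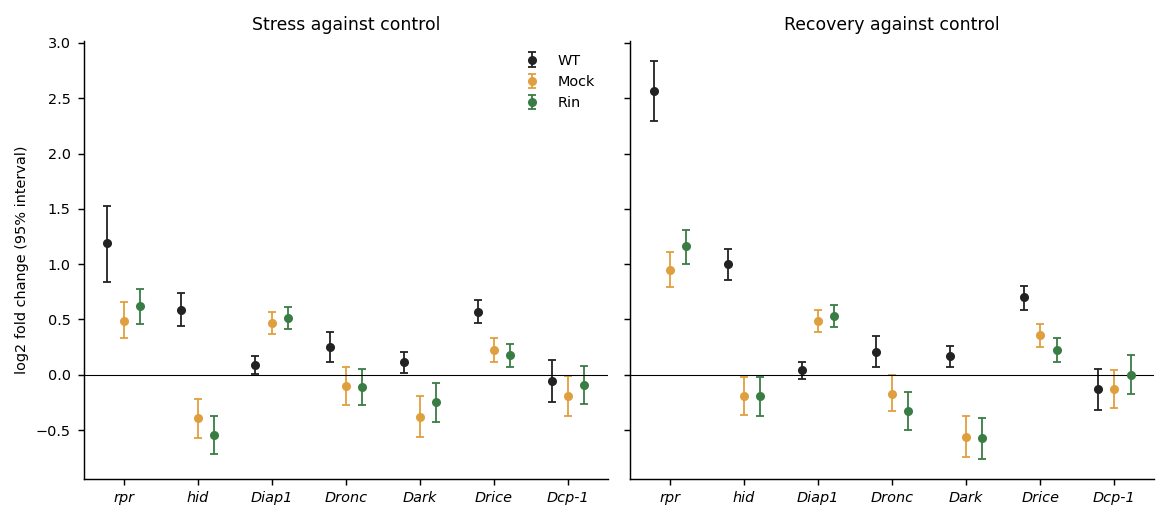
Log2 fold change against control of the 7 tested genes in stress (left) and recovery (right), for WT (black), Mock (orange) and Rin (green) cells. Points are edgeR estimates from 3 libraries a group and bars are 95% intervals. For hid the WT values of 0.59 and 1.00 lie above 0 and the Mock and Rin values, from −0.54 to −0.19, below it.

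rpr started high in the RNAi sets. Mock control libraries held 24.9, 28.0 and 30.1 CPM and Rin control libraries 27, 27.9 and 29.7 CPM, a range that overlaps WT recovery. Mock stress held 37.7, 40.3 and 38.9 CPM and Mock recovery 55.0, 54.5 and 50.9 CPM. Rin stress held 47.6, 42.5 and 40.5 CPM and Rin recovery 61.5, 62.6 and 65.6 CPM, the highest level of any poly(A) group. No 2 treatments of a set overlapped. In Mock the rise was of 0.49 on the log2 scale with stress (SE 0.08, adjusted p = 2.13e-05) and of 0.95 by recovery (SE 0.08, adjusted p = 8.22e-10), by edgeR. In Rin it was of 0.62 (SE 0.08, adjusted p = 6.09e-07) and 1.16 (SE 0.07, adjusted p = 2.60e-11). Recovery exceeded stress by 0.46 in Mock (adjusted p = 0.000803), where 9.33% of all genes were called, and by 0.54 in Rin (adjusted p = 6.91e-05), where 30.5% were called.

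hid ran the other way. Mock control libraries held 49.7, 49.6 and 54.2 CPM, Mock stress 34.8, 43.6 and 39.1 CPM and Mock recovery 46.8, 46.4 and 41.6 CPM. Rin control held 49.6, 47.5 and 46.0 CPM, Rin stress 32.0, 31.2 and 35.1 CPM and Rin recovery 40.8, 38.4 and 46.7 CPM. In both sets stress lay wholly below control. hid fell by 0.39 on the log2 scale in Mock stress (SE 0.08, adjusted p = 0.000436) and by 0.54 in Rin stress (SE 0.08, adjusted p = 1.16e-05). In recovery it was −0.19 in each set, with adjusted p = 0.0457 in Mock and 0.0437 in Rin by edgeR, and these calls were marginal. They were lost with DESeq2 (0.0676 and 0.0588) and in 5 of 6 omissions of a library in Mock (adjusted p up to 0.216, without recovery replicate 3) and 5 of 6 in Rin (up to 0.231, without recovery replicate 2).

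Diap1, not called in WT cells, rose in both RNAi sets. Mock control libraries held 156, 157 and 162 CPM and Rin control 151, 150 and 157 CPM, all below every WT library. Mock stress held 220, 222 and 219 CPM, Mock recovery 219, 227 and 223 CPM, Rin stress 222, 212 and 220 CPM and Rin recovery 220, 223 and 221 CPM. Treated libraries of both sets thus came close to the WT control range of 225 to 231 CPM, and 1 of them, at 227 CPM, fell in it. The log2 fold changes were 0.47 and 0.49 in Mock (adjusted p = 4.67e-08 and 1.77e-08) and 0.51 and 0.53 in Rin (adjusted p = 1.39e-08 and 4.60e-09), each with SE 0.05, by edgeR.

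Dark fell with treatment in the RNAi sets. Its Mock control libraries held 105, 129 and 126 CPM, Mock stress 96.8, 81.5 and 99.6 CPM and Mock recovery 78.2, 82.1 and 84.9 CPM. Rin control held 121, 120 and 128 CPM, Rin stress 107, 98.2 and 105 CPM and Rin recovery 71.5, 88.0 and 89.5 CPM. The log2 fold changes were −0.38 (adjusted p = 0.00101) and −0.56 (1.27e-05) in Mock and −0.25 (0.0168) and −0.57 (8.78e-06) in Rin, by edgeR. The Rin stress call was lost without Rin control replicate 3 (−0.22, adjusted p = 0.0562) or Rin stress replicate 2 (−0.21, adjusted p = 0.0647). The overlapping asRNA:CR44390 was not called there, and averaged 5.99, 6.94 and 5.31 CPM in Mock control, stress and recovery. Dronc was called lower in Rin recovery alone, at 41.3, 36.9 and 37.5 CPM against 45.0, 51.2 and 49.0 CPM in Rin control (log2 −0.33, SE 0.08, adjusted p = 0.00101). In the other 3 comparisons of the RNAi sets Dronc was −0.17 to −0.10, with none called, and Mock recovery had adjusted p = 0.0672 and passed without Mock control replicate 1 (−0.21, adjusted p = 0.0409). With counts scaled to the library total alone, Dronc was called lower in these 3 too.

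Drice rose in the RNAi sets by less than in WT. Mock control libraries held 85.0, 82.8 and 82.5 CPM, Mock stress 94.7, 98.5 and 101 CPM and Mock recovery 110, 105 and 106 CPM. Rin control held 89.3, 90.5 and 90.9 CPM, Rin stress 96.8, 106 and 104 CPM and Rin recovery 104, 108 and 104 CPM. The log2 fold changes were 0.22 (adjusted p = 0.000875) and 0.36 (3.50e-06) in Mock and 0.18 (0.00511) and 0.22 (0.000642) in Rin, by edgeR. The direction in Rin recovery turned to −0.06 under total library size, and the other 3 were not called under it. Dcp-1 lay between 20.8 and 26.9 CPM in all 18 libraries, with log2 differences of −0.19 to 0.00 and none called. Under total library size Dcp-1 was called lower in stress and in recovery of both RNAi sets.

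skl had too few counts for the fit in these sets too. It summed to 2, 16 and 22 counts in Mock control, stress and recovery and to 9, 19 and 25 in Rin, with no library above 13. The depth-corrected ratio to control was 9.0 in Mock stress (exact 95% interval 2.12 to 80.7), 11 in Mock recovery (2.69 to 96.2), 2.10 in Rin stress (0.905 to 5.27) and 3.33 in Rin recovery (1.5 to 8.1). In Mock no treated library overlapped control, while Rin stress and recovery overlapped it, and the Mock ratios rest on 2 counts in control.

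The difference between the WT and Mock responses was tested in 1 fit of all 27 poly(A) libraries. In stress 27.2% of all genes tested differed (10.9% higher in Mock, 16.3% lower) and in recovery 43.0% (19.7% and 23.3%), and of the 7 genes 6 did in each, 5 with a lower response in Mock and 1, Diap1, with a higher one. For rpr the Mock response was lower by 0.70 on the log2 scale in stress (SE 0.19, adjusted p = 0.00649) and by 1.57 in recovery (SE 0.17, adjusted p = 2.60e-08). For hid it was lower by 0.99 (SE 0.12, adjusted p = 2.11e-07) and 1.14 (SE 0.11, adjusted p = 5.27e-09). Diap1 was higher by 0.37 (SE 0.06, adjusted p = 3.30e-05) and 0.49 (SE 0.06, adjusted p = 2.71e-07). The Dronc difference, of −0.37 and −0.34, was lost in each case without Mock control replicate 2 (−0.29, adjusted p = 0.0646, and −0.26, 0.0746), in stress also without WT stress replicate 3 (−0.26, 0.107) or Mock stress replicate 3 (−0.28, 0.0837), and in recovery without Mock recovery replicate 3 (−0.28, 0.0513).

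These differences sit beside unequal starting levels, which were compared after the data had been seen. In control cells rpr was 5.02-fold higher in Mock than in WT (log2 2.33, SE 0.14, adjusted p = 1.38e-14 by edgeR), hid 1.48-fold higher (adjusted p = 1.41e-06) and Drice 1.40-fold higher (adjusted p = 2.28e-09). Diap1 was lower, at 0.692 of the WT level (adjusted p = 2.07e-11), and 55.9% of all genes were called in that comparison. In recovery the rpr gap was down to 0.75 and the Diap1 gap to −0.04 (adjusted p = 0.422), while hid was lower in Mock by 0.58 (adjusted p = 1.65e-07) and Dark by 0.85 (adjusted p = 1.98e-10). There 68.0% of all genes were called, and 61.9% in stress. Of the 9 S2 or plasmatocyte markers, 6 were lower in Mock control than in WT control with no overlap of libraries, 2 overlapped (crq, at means of 165 CPM in WT and 168 CPM in Mock, and NimC1 near 0) and He, below 2 CPM, was higher. The 55.9% of all genes called between these controls is by adjusted p in either direction, a measure unlike library overlap. The share of all genes without overlap is not given, so the count of 6 is not read as particular to the markers. Their sum, 4950 to 5150 CPM in WT control and 1260 to 1340 CPM in Mock control, was carried mainly by Pxn, at means of 3770 and 563 CPM. Of 4 muscle markers, Mlc2 stood at means of 0.942 and 20.9 CPM and the other 3 at 1.4 CPM or less in both. Their part in the differences was not tested, and in bulk RNA fewer cells of a type and less RNA per cell cannot be told apart. The RNAi procedure and any difference of culture, day or sequencing between the WT and Mock experiments cannot be told apart either.

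**Figure D3:**
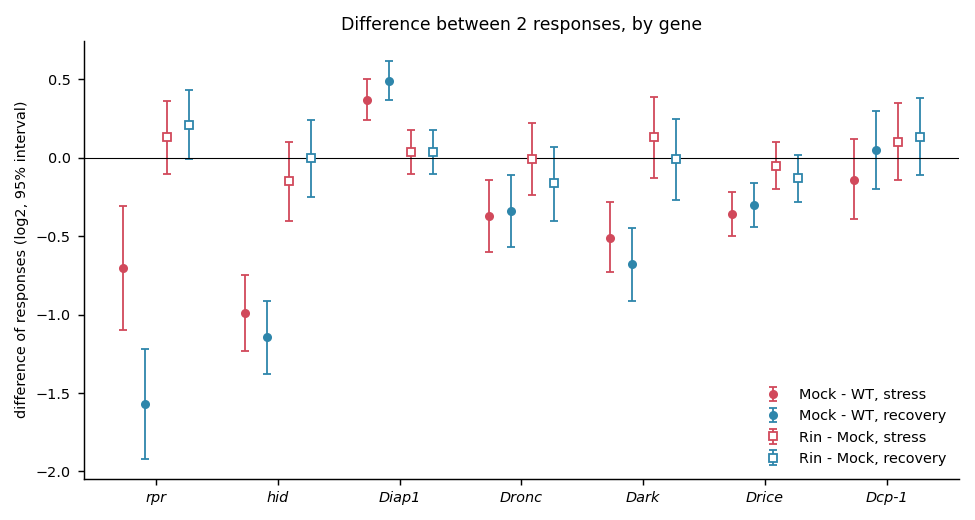
Differences between responses (log2, vertical axis) for the 7 tested genes: Mock minus WT as filled circles, Rin minus Mock as open squares, stress in red and recovery in blue, with 95% intervals from edgeR. Mock minus WT values run from −1.57 for rpr to 0.49 for Diap1 in recovery, and each Rin minus Mock interval includes 0.

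Knockdown of rin was compared with the mock treatment at each stage, and no member was called. Only 0.0459% of all genes tested were called in control cells, 0.161% in stress and 0.126% in recovery. In control the log2 differences of Rin from Mock ran from −0.10 for hid to 0.11 for Drice. In recovery rpr was higher in Rin in each library, 61.5 to 65.6 against 50.9 to 55.0 CPM, a log2 difference of 0.24 (95% interval 0.09 to 0.38) with adjusted p = 0.174 by edgeR. In stress hid was lower by 0.25 (−0.43 to −0.07), with adjusted p = 0.344 by edgeR and overlapping groups. Diap1 differed by −0.05, −0.02 and −0.01 in the 3 treatments, with no interval reaching beyond 0.15 in size.

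The responses themselves differed by 0.21 between Rin and Mock for rpr in recovery (95% interval −0.01 to 0.43, adjusted p = 0.575 by edgeR) and by 0.13 in stress (−0.10 to 0.36). For hid the differences were −0.15 (−0.40 to 0.10) and 0.00 (−0.25 to 0.24), and for Diap1 0.04 in both (−0.10 to 0.18). None of the 7 genes was called, and neither was any other gene (0.0% in both), while 295 genes in stress and 759 in recovery had an unadjusted p under 0.05 by edgeR, and DESeq2 called 0. The intervals for rpr leave room for a recovery response up to 0.43 larger in Rin cells, so the test does not show that the 2 responses are alike.

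Within a library, the balance of inducers moved from hid to rpr and the balance of inducers over Diap1 depended on the set. On the scale of counts per kb, rpr over hid was 0.629 to 0.755 in WT control libraries, 0.841 to 1.25 under stress and 1.97 to 2.28 after recovery. In Mock it was 2.23 to 2.52, 4.13 to 4.83 and 5.24 to 5.46, and in Rin 2.42 to 2.88, 5.14 to 6.63 and 6.26 to 7.27. These ratios need no scaling between libraries. Only between Rin stress and Rin recovery did the treatments of a set overlap.

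The sum of rpr and hid over Diap1 rose in WT: it was 0.170 to 0.191 in control libraries, 0.234 to 0.351 under stress and 0.578 to 0.666 after recovery, with no overlap. In Mock it began at 0.716 to 0.808, above all WT libraries, was 0.641 to 0.699 in stress and reached 0.840 to 0.927 in recovery. In Rin it was 0.780 to 0.797, 0.684 to 0.764 and 0.992 to 1.07. In both RNAi sets the stress libraries lay below their controls, where Diap1 had risen and hid had fallen, and recovery lay above. The Rin recovery libraries, at 0.999, 0.992 and 1.07, had the highest ratios among the 27 poly(A) libraries.

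**Figure D4:**
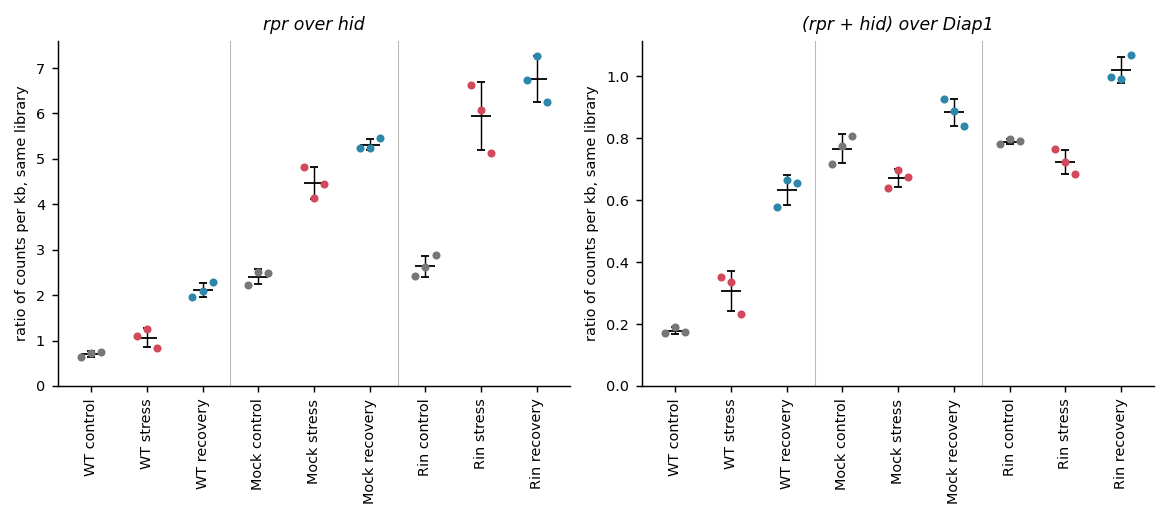
Ratios within each poly(A) library, on counts per kb of exonic bases not shared with another gene: rpr over hid (left) and the sum of rpr and hid over Diap1 (right). Points are libraries, coloured by treatment, with the mean and 1 SD over 3 libraries, and both axes start at 0. The left ratio rises from control to recovery in each set, and the right one dips in stress in Mock and Rin only, to 0.641 to 0.764.

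In Click-iT RNA rpr was also higher after arsenite, but the libraries scattered too widely for a call. Control libraries held 15.8, 9.92 and 20.2 CPM of rpr (on the scale of the Click-iT set), stress libraries 75.5, 17.9 and 152 CPM and recovery libraries 237, 27.6 and 114 CPM. Stress replicate 2, at 17.9 CPM, lay within the control range, and recovery replicate 2, at 27.6 CPM, just above it. The log2 fold change was 2.45 in stress (95% interval 0.52 to 4.38, adjusted p = 0.320) and 3.10 in recovery (1.08 to 5.11, adjusted p = 0.167) by edgeR. No gene was called in either comparison (0.0%), while 985 and 1449 genes had an unadjusted p under 0.05 by edgeR, and DESeq2 called 154 and 547. Without stress replicate 2, rpr was 2.93 in stress (adjusted p = 0.0479 by edgeR) and 304 genes were called. Stress replicate 3, the highest in rpr, stood apart too. It had 13274 genes with a count, against 11264 and 10148 in replicates 1 and 2. Its top 10 genes held 10.7% of its counts, against 5.68% and 5.16%. Which of these libraries is atypical was not tested. In recovery rpr passed with DESeq2 (3.05, adjusted p = 0.0149).

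Other members followed the same libraries. Click-iT control libraries held hid at 101, 121 and 96.5 CPM, stress libraries at 237, 137 and 263 CPM and recovery libraries at 204, 86.4 and 134 CPM, so stress lay above control and recovery overlapped it. Drice stood at 89.8, 106 and 111 CPM, then 244, 128 and 470 CPM, then 492, 79.5 and 269 CPM. Diap1 ranged from 188 to 232, 217 to 381 and 249 to 349 CPM, Dronc from 30.2 to 41.5, 38.6 to 63.3 and 20.7 to 71.1 CPM, and Dark from 110 to 136, 145 to 337 and 111 to 367 CPM. In recovery the Dronc levels rest on 6 to 24 counts a library. None was called, with log2 differences of 0.59 to 1.45 in stress and 0.42 to 1.46 in recovery. Dcp-1 held at most 30 counts in a library, skl at most 16 and grim 1 count in 1 library, and these 3 did not pass the filter. Recovery against stress also called 0.0% of genes, with 729 at an unadjusted p under 0.05 by edgeR and 5 called by DESeq2, and its rpr difference of 0.65 had an interval of −1.14 to 2.43.

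Set against the WT response in 1 fit, 0.0740% of all genes in stress and 0.211% in recovery differed between Click-iT and WT, and none of the 8 members that passed the filter of that fit was called. The member nearest to a call was hid in recovery, where the Click-iT response was lower by 0.96 on the log2 scale (95% interval −1.53 to −0.39, adjusted p = 0.126 by edgeR), with −1.21 to −0.59 over the omissions of a library. For rpr the differences were 0.94 (−0.68 to 2.56) in stress and 0.15 (−1.56 to 1.87) in recovery, intervals too wide to compare the 2 responses.

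The 4 inducers lie together on chromosome arm 3L, all on the minus strand, and only hid and rpr stood above the genes between them in counts. On dm6, hid is at 18167745 to 18185641, grim at 18302719 to 18304417, rpr at 18397535 to 18398435 and skl at 18438561 to 18439942, each protein-coding, and skl and rpr have 1 annotated transcript. The stretch from hid to skl spans 272 kb and holds 17 annotated genes, all in the count files. Over the 27 poly(A) libraries hid collected 10702 counts and rpr 8191. The next were CG7320 with 123, skl with 120 and lncRNA:CR45936 with 43, so hid and rpr together held nearly all counts of the stretch. The nearest annotated gene upstream of rpr on its strand, lncRNA:CR46215, lies 30088 bases away and had 0 counts in each library, Click-iT included. The counts thus show no reads in that neighbour.

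**Figure D5:**
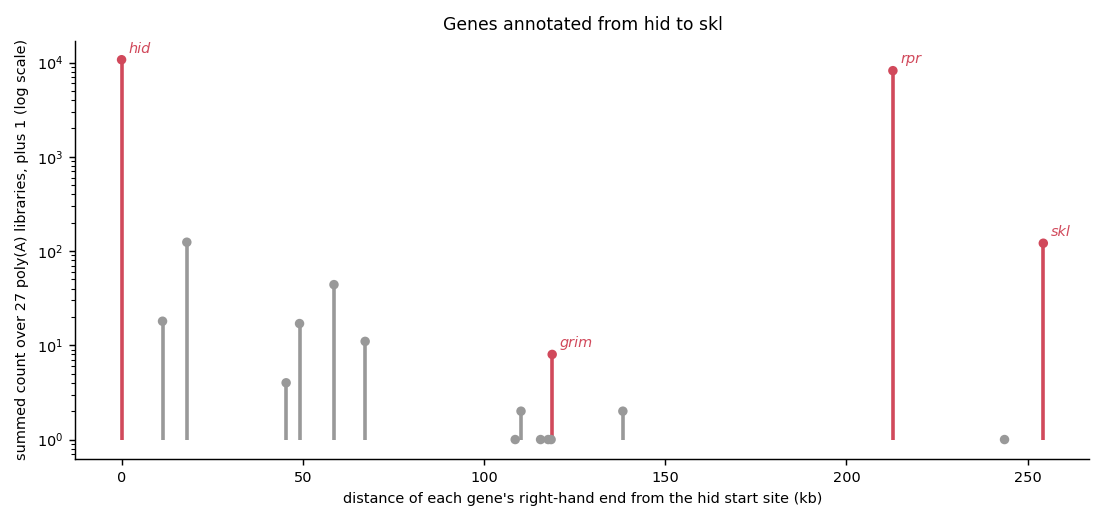
Summed counts over the 27 poly(A) libraries (vertical axis, log scale, 1 added) of the 17 genes annotated from hid to skl, against the distance in kb from the hid start site. The 4 inducers are in red and the other genes in grey. hid (10702 counts) and rpr (8191) stand far above the rest, of which the highest has 123.

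The other members lie apart. Diap1 is on 3L at 16038410 to 16051034 (minus strand), Dronc on 3L at 9968479 to 9971002 (plus), Dark on 2R at 17020027 to 17026703 (plus), Drice on 3R at 29799658 to 29801584 (plus) and Dcp-1 on 2R at 23551313 to 23553547 (plus). Upstream of Drice on the same strand, with a gap of 3852 bases, lies sro, which rose by 5.81 on the log2 scale in WT recovery (adjusted p = 6.25e-18 by edgeR), from 0.186 to 10.7 CPM. Between them lies Rnb on the other strand, which fell by 1.65 (adjusted p = 3.04e-18). In WT stress sro stood at 0.591 CPM, at a time when Drice had reached 89.8 to 90.4 CPM. In Click-iT libraries sro had 0 counts in control and ranged widely after treatment, from 3.13 to 363 CPM in stress and from 13.8 to 376 CPM in recovery. Whether reads past the end of sro enter the Drice count was not tested.

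Other genes of the pathway, in 6 lists of 36 genes of which 31 were tested, showed no common direction. In WT recovery 12 were called higher and 9 lower, with a median log2 fold change of 0.02 beside 0.00 over all genes tested, and 68.7% of all genes were called there. In Mock recovery 11 were higher and 13 lower, and in Rin recovery 11 and 16. The shares called, in either direction, can be read against 65.8% and 69.5% of all genes tested.

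Of 4 other caspases, 2 were tested. Strica, an initiator-type caspase, rose in WT by 0.37 in stress (adjusted p = 3.55e-10) and 0.38 in recovery (1.47e-10), from 178 to 225 CPM in recovery, and was 0.02 and −0.07 in Mock, not called. Dredd, a caspase of immune signalling, had the other pattern: it was −0.09 in WT recovery, not called, and rose by 0.71 both in Mock recovery, from 22.8 to 37.4 CPM, and in Rin recovery, from 23.9 to 39.3 CPM. Dredd was named after its values had been seen. Of 3 other BIR proteins, 2 were lower in WT recovery and none higher. Bruce, a giant BIR-containing ubiquitin ligase, fell by 0.45 in WT recovery (adjusted p = 4.69e-12), by 1.06 in Mock (2.13e-05) and by 1.39 in Rin (6.04e-07). Diap2, a relative of Diap1 that acts in immune signalling, fell by 0.12 in WT recovery (adjusted p = 0.0312) and was −0.11 and −0.08 in Mock and Rin, not called.

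Among 6 Bcl-2 family and mitochondrial genes, of which 5 were tested, 2 were higher and 2 lower in WT recovery. Buffy, one of the 2 fly Bcl-2 proteins, rose from 0.246 to 1.76 CPM (log2 2.93, SE 0.55, adjusted p = 1.36e-05), and HtrA2, a mitochondrial protease that can cleave Diap1, fell from 8.29 to 5.0 CPM (log2 −0.70, adjusted p = 0.000314). Both went the same way in Mock recovery, at 2.79 (adjusted p = 0.000348) and −1.02 (5.98e-06), and in Rin recovery, at 2.30 (0.00138) and −0.86 (3.08e-05).

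Of 11 upstream signals and activators, 10 were tested, with 3 higher, 2 lower and 5 not called in WT recovery. p53, which induces rpr and hid after DNA damage in flies, rose in all 3 sets: from 23.2 to 37.6 CPM in WT recovery (log2 0.74, adjusted p = 4.87e-10), from 30.3 to 44.2 CPM in Mock (0.54, 1.25e-06) and from 33.5 to 51.1 CPM in Rin (0.61, 1.31e-07). Corp, a p53 target that limits p53 protein in flies, rose by 1.73 in WT recovery (adjusted p = 1.68e-08), 2.01 in Mock (1.53e-07) and 1.71 in Rin (5.31e-07), from 1.77, 2.06 and 2.70 CPM in control. In contrast to hid, both thus rose in each set.

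Of 4 ubiquitin regulators of Diap1 and caspases, 1 was higher and 1 lower in WT recovery. morgue, an F-box protein that promotes Diap1 turnover, rose by 0.61 in WT stress (adjusted p = 5.81e-08) and 0.58 in WT recovery (8.52e-08), and was 0.15 and −0.04 in Mock, not called. Ubr3, a ubiquitin ligase on the same list, fell by 0.44 and 0.40 in WT (2.53e-11 and 1.06e-10) and by 0.52 in Mock recovery (0.000494). Of 8 nuclease and engulfment genes, 7 were tested and all 7 were called in WT recovery, 5 higher and 2 lower, where 68.7% of all genes were called, 35.2% higher and 33.5% lower. In Mock recovery 2 of the 7 were higher and 3 lower, where 65.8% of all genes were called. In Rin recovery 2 were higher and 4 lower, where 69.5% were called. Drep1, a DFF-related inhibitor of the apoptotic nuclease, rose by 1.18 in WT recovery (adjusted p = 3.11e-15), 0.83 in Mock (4.55e-09) and 0.95 in Rin (5.82e-10), and NimC4, a receptor for apoptotic corpses, rose by 0.77 in WT recovery (3.93e-13) from 33.9 CPM. The NimC4 values in Mock and Rin are not given here. Of the 7 genes of this list, 6 had a lower recovery response in Mock than in WT, where 23.3% of all genes did.

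The genes whose pattern was most like that of the members with the widest range were found by Pearson's r of mean log2(CPM + 1) over the 9 poly(A) groups, among 7403 genes that reached 5 CPM in a group. rpr, with a range of 3.32 on that scale, was most like GstD9 (r = 0.995), GstD5 (0.986) and Cyp6a20 (0.983). GstD9 went from 36.4 CPM in WT control to 161 CPM in Rin recovery, the groups in which rpr too was lowest and highest. For hid, with a range of 1.01, the nearest were CG3847 (0.932), foi (0.916) and CG10863 (0.903), and CG3847 spanned only 102 to 126 CPM. For skl, with a range of 0.87 and few counts, they were Uch (0.983), CG2126 (0.982) and GstT2 (0.977). The 9 means share their libraries and treatments, so these values describe likeness and carry no test.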

How the data were processed

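Per the labels' protocols, poly(A) libraries were made with an Illumina TruSeq RNA kit and read as 50-base single ends. Per the submitters' processing notes, STAR 2.5.3, HTSeq and DESeq2 were used on build dm6. The deposited values are raw counts per gene symbol, 1 file per library, with 5 summary lines that were left out of library sizes: reads assigned to no gene made up 7.33% to 12.3% in poly(A) and 1.06% to 11.5% in Click-iT libraries, and ambiguous reads 1.29% to 1.54% and 0.0772% to 0.475%. The counting mode and strand setting are not given in the sources used here. The submitters' 12 tables of comparisons were not used.

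Counts were fitted with edgeR 4.0.16 (quasi-likelihood, TMM, filterByExpr) in R 4.3.3: 9 WT libraries (8123 genes tested), 18 Mock and Rin libraries (8707), 9 Click-iT libraries (6558), 18 WT and Click-iT libraries (9460) and 27 poly(A) libraries (8902). Tests were two-sided with Benjamini-Hochberg adjustment over all genes tested. The biological coefficient of variation was 2.85%, 6.49%, 42.8%, 26.8% and 5.64% in these fits, so the WT set resolves smaller differences than the others and the Click-iT set far larger ones only. Counts of replicate pairs were compared by chi-square over genes. The highest value per degree of freedom was 2.49 among WT pairs, 7.03 among Rin pairs, 25.7 among Mock pairs and 83.9 among Click-iT pairs. The lowest, 1.19, was also of a WT pair. Counting error alone gives about 1, so the WT libraries differed by little more than that. Each library was kept as 1 replicate in all sets. Whether the WT replicates were separate cultures was not tested, and the WT p-values and calls of small changes rest on this narrow spread. Alternatives were RLE size factors, total library size, no filter, the replicate number as a block, DESeq2 1.42.0, only the groups compared, and leaving out each library. Levels of Mock against WT were added after the data had been seen. The scripts were tested on simulated data. Ratios of few counts have exact 95% intervals (binomial, on summed counts), and 3 counts is the limit a count of 0 allows.

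Coordinates, transcripts and neighbours come from the Ensembl annotation of dm6 (BDGP6), matched by symbol. Levels per kb use exonic bases not shared with another gene, which assumes that reads in shared bases were not counted. The genes and the pathway and marker lists were chosen with earlier results of these data known. Named were all 9 genes, up to 2 genes a list with the largest called change in WT recovery, the 3 genes most like each of the 3 members of widest range, and some of the neighbours.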

Additional observations from a re-analysis of the deposited data

Results flagged for a closer look

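For 6 of the 7 tested genes the response differed between Mock and WT cells by the test of the difference itself, in stress and in recovery. As Mock minus WT on the log2 scale, the stress and recovery differences were −0.70 and −1.57 for rpr, −0.99 and −1.14 for hid, 0.37 and 0.49 for Diap1, −0.37 and −0.34 for Dronc, −0.51 and −0.68 for Dark, and −0.36 and −0.30 for Drice. Adjusted p by edgeR ran from 5.27e-09 (hid in recovery) to 0.0161 (Dronc in recovery), and 27.2% of all genes in stress and 43.0% in recovery also differed. Dcp-1 was not called, at −0.14 and 0.05. WT and Mock controls differed at the start, and the RNAi procedure cannot be told apart from other differences between the 2 experiments.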

How the results depend on the processing

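Scaling to the library total alone moved the median log2 fold change of all genes to −0.181 in WT recovery, −0.228 in Mock recovery and −0.253 in Rin recovery, and the calls of all genes in WT recovery from 2861 higher and 2719 lower to 1997 and 4094. It turned the direction of Diap1 in WT stress (−0.01) and WT recovery (−0.14), Dark in WT recovery (−0.01), Drice (−0.06) and Dcp-1 (−0.28) in Rin recovery, Diap1 in Rin against Mock stress (0.01) and Dcp-1 in the Mock minus WT recovery response (−0.06). rpr and hid kept their direction and call in each poly(A) response against control under it. Over all members and comparisons, shown here or not, alternatives other than leaving out a library gave 897 values with the same direction and side of the threshold, 16 that passed it, 19 that lost it and 26 that turned, of which the 4 that involved a call are those of Diap1 and Dark in WT recovery and of Drice and Dcp-1 in Rin recovery. Leaving out a library gave 1164, 9, 32 and 61, and none of the 61 was called before or after. Among values reported here, leaving out a library turned some of the Rin minus Mock differences of Dronc in stress (−0.09 to 0.04) and Dark in recovery (−0.07 to 0.08), the Mock minus WT difference of Dcp-1 in recovery (−0.04 to 0.11), and in Click-iT the values of Dronc in recovery (−0.03 to 0.82), rpr in recovery against stress (−0.33 to 1.47) and the rpr recovery difference from WT (−0.70 to 0.59). In Click-iT stress the number of members called was 0, but 2 without the filter and 0 to 1 when a library was left out. In Click-iT recovery it was 0, but 1 without the filter, 1 with DESeq2 and 1 in a fit of only the groups compared, each time rpr. The count in Mock recovery against stress was 1, and 1 to 3 when a library was left out, the 3 without Mock stress replicate 2. The cause of these changes was not tested. The replicate numbers were not taken to pair the libraries: same-numbered libraries correlated at −0.0505 to 0.0378 in WT, −0.305 to 0.233 in Mock and Rin and −0.359 to 0.61 in Click-iT, where 3 of 9 pairs passed 0.1 and the highest was stress 2 with recovery 2. With the number as a replicate block 5 members were called in WT stress, 5 in WT recovery, 5 in Mock stress and 5 in Rin stress, as without it. In Mock recovery 4 were called in place of 5 and in Rin recovery 5 in place of 6, the lost member being hid (adjusted p = 0.0588 and 0.0559 by edgeR), while calls of all genes went from 5733 to 5570 and from 6052 to 5915. The block turned Diap1 in Rin against Mock recovery (0.01) and the Click-iT minus WT difference of rpr in recovery (−0.07). Depth limits grim and skl in all sets and Dcp-1 in Click-iT. In Click-iT recovery it limits other members too, as rpr rested on 8 to 80 counts a library and Dronc on 6 to 24.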
